A study of Homo sapiens with 6 samples.

Results

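The authors' deposited table for RKO cells, an established human colorectal carcinoma line, lists 3511 genes. Of these, 36 were read in fasting medium and had no read in any of the 3 control libraries. They were chosen by that value, a normalized count of 0 in control replicates 1, 2 and 3, in the authors' deposited table. A further 5 genes that meet the same condition, CRYAB, HSPA7, HKDC1, ANKRD1 and SLC7A11-AS1, were set aside by the selection. The fasting group was RKO cells of wild-type genotype in medium with 1% serum and 1 g/L glucose (3 libraries), and the control group was the same cells in medium with 10% serum and 4.5 g/L glucose (3 libraries), both for 48 h. The deposited table holds the genes that the authors had called at an adjusted p under 0.05, so every one of the 36 genes had already been selected for a difference between the media. What follows describes them, and the difference between the media is not tested on them. Nothing in the labels says whether the 3 libraries of a group came from separate cultures, so the spread between them may be technical.

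Low serum and low glucose withdraw growth factors and fuel from a culture. Stress responses of cells include the integrated stress response, in which the transcription factor ATF4 turns on amino acid genes. In the heat shock response, heat shock factor binds repeats of the letters GAA and their reverse TTC. Immediate early factors of the AP-1 family are a further class. Which of these low serum and low glucose would bring on is not assumed here. Many genes that a cultured carcinoma line leaves silent are tissue-restricted, and their transcripts are counted in a few reads when they appear at all.

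The promoter letters of these genes are shown first. Some of the motifs searched are those of the factors named above, and whether any factor acts on them was not tested. RefSeq (GRCh38.p14) gave the 250 bases before the transcription start for 15 of the 36 genes, and 6 of these held at least one of the motifs searched on both strands. The motifs were the heat shock pair GAANNTTC or TTCNNGAA, the AP-1 site TGANTCA, the ATF4-type element TGATGNAA, the cAMP element TGACGTCA, the TATA box TATAAA and the antioxidant element TGACNNNGC. Capitals mark the matched letters, with 10 bases on either side unless the window ended, each written from 5′ to 3′ on the strand of the gene.
PAPPA2, chr1:176463094-176463131, + strand: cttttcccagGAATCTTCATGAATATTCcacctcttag
BCAT1, chr12:24949132-24949229, - strand: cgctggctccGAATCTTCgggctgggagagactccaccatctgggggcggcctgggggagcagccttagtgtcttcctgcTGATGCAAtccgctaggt
XIRP1, chr3:39192774-39192845, - strand: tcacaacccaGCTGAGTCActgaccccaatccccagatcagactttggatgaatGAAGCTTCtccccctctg
TREM1, chr6:41286782-41286809, - strand: gagcaactggTGATGAAAcagaacccaa
PLB1, chr2:28495893-28495919, + strand: tacccatcatTGACTCAtctgccttaa
FOSL2-AS1, chr2:28394690-28394717, - strand: cttcctggtaTTTATAAAcacagagatc
MIR31 is also among the 36 genes, and its mature product hsa-miR-31-5p (chr9:21512158-21512178, - strand) is shown with its seed, bases 2 to 8, in capitals: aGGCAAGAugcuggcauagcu.

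The capitals in PAPPA2 are 3 heat shock pairs that overlap, starting 71, 66 and 61 bases before the transcription start. That arrangement, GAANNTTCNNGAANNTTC on either strand, was looked for after it had been seen, and 7 of 27305 RefSeq promoters (0.0256%) held it. Of the 7, only PAPPA2, in which it was seen, and CHORDC1, a co-chaperone of HSP90, are in the deposited table. The others are not, and 11.8% of the genes the authors tested are listed. Whether heat shock factor acts on either gene was not tested. CHORDC1 averaged 3429 ± 187 normalized counts in fasting medium and 1520 ± 90.1 in control medium (SD, n = 3 each), a log2 difference of 1.17 (limma, Benjamini-Hochberg adjusted p = 1.22e-04). PAPPA2 cleaves binding proteins of insulin-like growth factors and had 6, 12 and 5 reads in fasting replicates 1, 2 and 3 and 0 in each control library.

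At least 1 heat shock pair was present in 3 of the 15 promoters (PAPPA2, BCAT1 and XIRP1), beside 9.57% of the 1222 promoters of other listed genes higher in fasting medium and 11.7% of all RefSeq promoters. AP-1 letters were present in PLB1 and XIRP1, 2 of 15, beside 6.30% of those others and 6.60% of all. ATF4-type letters were present in BCAT1 and TREM1, 2 of 15, beside 2.37% of those others and 3.19% of all. TATA letters, found on both strands with overlap, were present in FOSL2-AS1, beside 9.41% of those others and 11.1% of all, and antioxidant letters in XIRP1 overlapped its AP-1 site, beside 13.6% of those others and 11.04% of all. The cAMP element was in none of the 15, in 3.60% of those others and in 1.77% of all. These matches describe letters only, and with 15 promoters no share was tested. The 15 promoters held a median of 8 CG pairs in the 250 bases, between 1 in FOLR3 and 33 in NDUFB2-AS1. Promoters of other listed genes higher in fasting medium held a median of 20 (1222 promoters), and all RefSeq promoters a median of 11.

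All values below are normalized counts, that is reads divided by the size factor the authors used for each library, or the reads themselves, which were recovered from the deposited values. The 36 genes held 675 reads in the 3 fasting libraries, 201, 259 and 215 in replicates 1, 2 and 3. Size factors were 0.788, 0.956 and 0.727 in fasting replicates 1, 2 and 3 and 1.01, 1.41 and 1.38 in control replicates 1, 2 and 3. Their sum over the controls was 1.54 times that over the fasting libraries, a ratio of scaling and not of depth. Scaled to the total reads of listed genes, the factors were 0.891, 1.08 and 0.934 in fasting replicates 1, 2 and 3. In control replicates 1, 2 and 3 they were 0.855, 1.19 and 1.17, closer to the fasting ones. The lowest sum among the 36 was 10 reads in fasting medium. By the authors' size factors, such a gene would have had 15.4 reads in the controls at an equal level. A count of 0 in all controls allows a level of up to 3 reads over the group, or 0.790 normalized counts by the same size factors. The fasting means of the 36 genes were 4.84 (Novel00176) to 23.1 (OLAH) times that limit, with a median of 8.06 times. These ratios allow for counting error in the controls only and take the fasting mean as measured. They follow from the selection on 0 in the controls and are not lower bounds of a difference between the media. The exact 95% Poisson interval of the fasting reads was 4.8 to 18.4 for the 10 reads of Novel00176 and 32.0 to 59.1 for the 44 of OLAH. Total library depth is unknown, since the table holds part of each library.

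The level in fasting medium was low in all 36 genes. Mean normalized counts over the fasting libraries ran from 3.82 (Novel00176) to 18.3 (OLAH), with a median of 6.36, against a median of 682 for the 1728 other listed genes higher in fasting medium. At least 10 normalized counts were reached by 8 genes, and 12 stayed under 5. The 5 genes set aside included the higher ones, such as CRYAB with 52, 61 and 87 reads in fasting replicates 1, 2 and 3 and 0 in each control library. By limma all 36 passed (adjusted p under 0.05, all higher), beside 49.7% of all listed genes called higher and 94.3% called in either direction, and nothing is read from this, since the same contrast chose them. Of all limma calls 52.7% were higher in fasting medium, and of edgeR calls on the recovered reads with the authors' size factors 52.2%. With edgeR on reads scaled to their total 33.6% were higher, the median log2 difference of all listed genes was 0.06 in place of 0.54, and 28 of the 36 passed. In the authors' deposited table their adjusted p ran from 1.59e-09 (OLAH) to 0.0390 (SNORD3B-1 and FOLR3), and 5.91% of the genes the authors tested were called higher (11.8% in either direction).

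**Figure D1:**
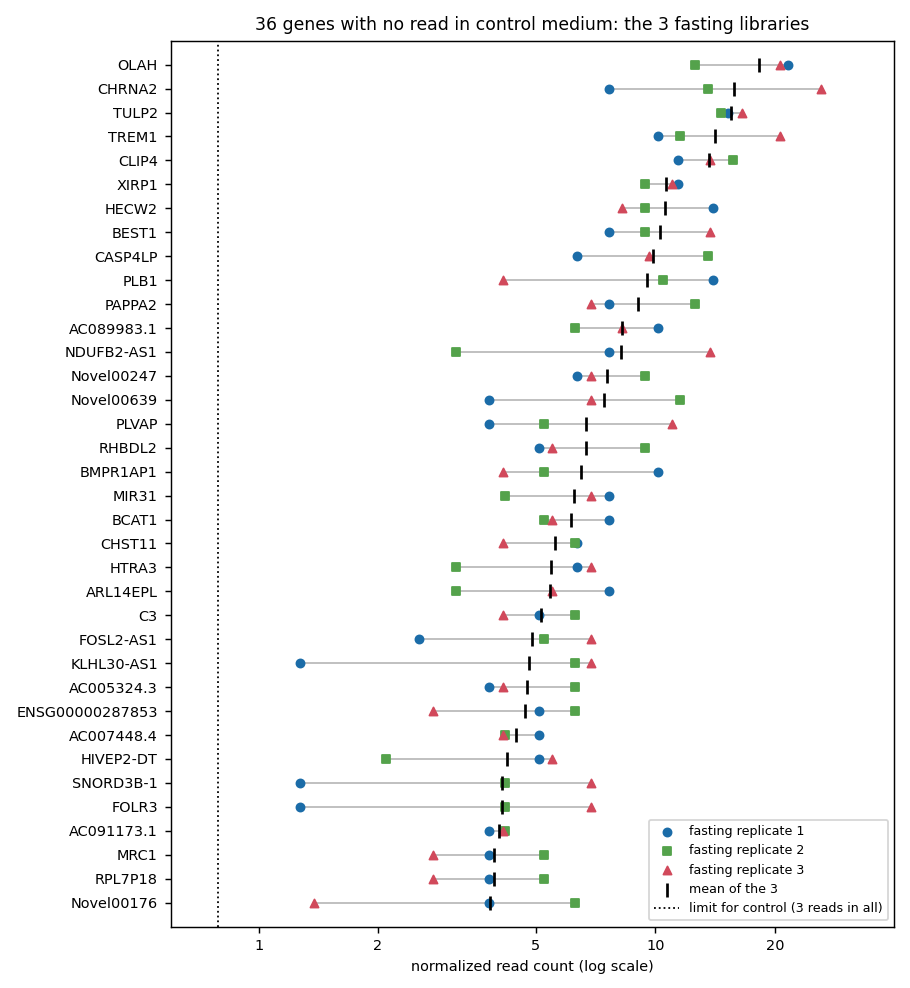
Normalized read count (log axis) of each of the 36 genes in fasting replicate 1 (circle), 2 (square) and 3 (triangle), with a tick at the mean, ordered from OLAH at 18.3 to Novel00176 at 3.82. The dotted line at 0.790 is the level that 3 reads over the 3 control libraries would give, and every fasting value lies to its right, the lowest at 1.27.

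The libraries of fasting medium held reads of every gene: all 36 were read in all 3, and 27 had at least 3 reads in each. The highest library exceeded the lowest by a median of 1.90 times, under 2 times in 19 genes and over 4 times in 5. Set against the shares that the size factors predict, the reads gave a chi-square of 67.4 on 72 degrees of freedom, or 0.936 per degree of freedom, where 1 is counting error alone. The 20 protein-coding genes had 0.937 and the other 16 had 0.936. Summed in the same way, other listed genes had 37.9 per degree of freedom. Gene by gene, the median was 0.737 over the 36 and 4.80 over other listed genes. The other listed genes had a median of 1010 reads against 15.5, and spread beyond counting error is harder to see at low reads. These are the libraries on which the genes were selected.

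Lipid genes included the gene with the highest mean normalized count. OLAH (ENSG00000152463) encodes the thioesterase that frees medium-chain fatty acids from fatty acid synthase, known from the mammary gland. It had 17, 12 and 15 reads in fasting replicates 1, 2 and 3, or 18.3 ± 4.96 normalized counts (SD, n = 3), and 0 in each control library. PLB1 (ENSG00000163803), a phospholipase of the intestinal brush border, had 11, 10 and 3 reads in fasting replicates 1, 2 and 3 and 0 in each control library. Fasting replicate 3 was the low one, and without it the mean was 12.2 in place of 9.52 normalized counts.

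Ion channel and sensory genes followed. CHRNA2 (ENSG00000120903), the alpha-2 subunit of the neuronal nicotinic acetylcholine receptor, had 6, 13 and 19 reads in fasting replicates 1, 2 and 3, or 15.8 ± 9.45 normalized counts, and 0 in each control library. Its chi-square over the fasting libraries was the largest of the 36, at 8.75 on 2 degrees of freedom, while 5 genes with fewer reads had a larger ratio of highest to lowest library, and without fasting replicate 3 its mean was 10.6. TULP2 (ENSG00000104804), a tubby-like gene known from testis and retina, had 12, 14 and 12 reads (15.5 ± 0.949 normalized counts) and 0 in each control library, and its fasting libraries lay within 1.13 times of each other. BEST1 (ENSG00000167995), the chloride channel of the retinal pigment epithelium, had 6, 9 and 10 reads (10.3 ± 3.15 normalized counts) and 0 in each control library. BEST1 overlaps the ferritin heavy chain gene FTH1 on the opposite strand, and FTH1 is not listed.

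Immune genes were read too, at levels between 3.93 and 14.1. TREM1 (ENSG00000124731) is a receptor of neutrophils and monocytes that amplifies inflammation. It had 8, 11 and 15 reads in fasting replicates 1, 2 and 3 (14.1 ± 5.70 normalized counts) and 0 in each control library, with replicate 3 the highest, and a mean of 10.8 without it. C3, the central component of complement, had 4, 6 and 3 reads in fasting medium and 0 in each control library. C3 overlaps GPR108 on the same strand, so its reads cannot be told apart from those of GPR108 by strand. GPR108 averaged 980 ± 157 normalized counts in fasting medium and 536 ± 16.5 in control medium. FOLR3, a secreted folate receptor of blood cells with close paralogs, had 1, 4 and 5 reads, and MRC1, the macrophage mannose receptor, had 3, 5 and 2, both against 0 in each control library. These low reads leave wide limits: the 10 reads of MRC1 have an exact 95% Poisson interval of 4.8 to 18.4 reads. Of 27 blood cell markers 2 were listed, ITGAX and CD14, and both rose. The 2 summed to 704 to 822 normalized counts in fasting libraries and 185 to 213 in control libraries. ITGAX made up most of it, at 771 ± 65.7 against 197 ± 14.3 (log2 difference 1.96, limma adjusted p = 4.08e-05), and CD14 averaged 8.08 ± 0.404 against 0.808 ± 0.155. The defining marker PTPRC was not listed, and the part of other cells in these reads was not tested. In bulk RNA, fewer cells that express a gene and less RNA per cell cannot be told apart.

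Cytoskeletal and matrix genes form another group. XIRP1 (ENSG00000168334) encodes an actin-binding protein of heart and skeletal muscle, and had 9, 9 and 8 reads in fasting replicates 1, 2 and 3 (10.6 ± 1.06 normalized counts) and 0 in each control library. CLIP4 (ENSG00000115295), of the CAP-Gly family of microtubule-binding proteins, had 9, 15 and 10 reads (13.6 ± 2.14 normalized counts) and 0 in each control library. Both genes had fasting libraries within 1.38 times of each other. PLVAP, the diaphragm protein of fenestrated endothelium, had 3, 5 and 8 reads, and CHST11, a chondroitin sulfotransferase, had 5, 6 and 3, both against 0 in each control library. Of 20 fibroblast and endothelial markers ESAM was listed, and it fell (41.2 ± 12.03 in fasting medium against 87.4 ± 13.0 in control medium, limma adjusted p = 0.0148), while PLVAP was not on that list.

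Enzymes of protein turnover and amino acid metabolism make up a further group. HECW2 (ENSG00000138411), a ubiquitin ligase of the HECT class, had 11, 9 and 6 reads in fasting replicates 1, 2 and 3 (10.5 ± 3.02 normalized counts) and 0 in each control library. RHBDL2, a rhomboid protease of the cell surface, had 4, 9 and 4 reads, and HTRA3, a secreted serine protease, had 5, 3 and 5, both against 0 in each control library. BCAT1 (ENSG00000060982), the cytosolic enzyme that transfers the amino group of branched-chain amino acids, had 6, 5 and 4 reads (6.12 ± 1.31 normalized counts) and 0 in each control library. PAPPA2, also a protease, averaged 9.01 ± 3.09 normalized counts, against 0 in each control library. The last of the 20 protein-coding genes, ARL14EPL and AC005324.3, are placed in no group here. ARL14EPL had 6, 3 and 4 reads and AC005324.3 had 3, 6 and 3 reads in fasting medium, both against 0 in each control library.

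Longer transcripts collect more reads, so an order by normalized counts, as used above, is one of reads and not of transcript level. Per kilobase of the longest transcript the protein-coding genes ran from 0.632 normalized counts per kilobase (BCAT1) to 10.3 (OLAH), with a median of 2.28. TULP2 followed OLAH with 8.81 and TREM1 came next with 6.88 normalized counts per kilobase. HECW2, whose transcript is the longest of the 32 with a length, lay at 0.866 on this scale although it was among the highest by counts. MIR31 stood at 87.7, a value that rests on a locus of 71 bases, the shortest of the 32.

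Genes not annotated as protein-coding made up 16 of the 36, of which 11 are of a noncoding class and 5 are unannotated or of unsettled class. Long noncoding RNAs numbered 6 (16.7%), pseudogenes 3 (8.33%), small RNAs 2 (5.56%) and genes not in GENCODE release 29 numbered 4 (11.1%), with 1 more of the class to be experimentally checked. Protein-coding genes were 55.6% of the 36 and 81.7% of the 1728 other listed genes higher in fasting medium, of which long noncoding RNAs were 9.20% and small RNAs 0.289%. The difference in makeup was not tested. The 16 genes had a median of 12 reads and the 20 protein-coding ones a median of 20. Per kilobase the order was the other way, with a median of 4.51 over the 12 of the 16 that have a length and 2.28 over the protein-coding genes.

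**Figure D2:**
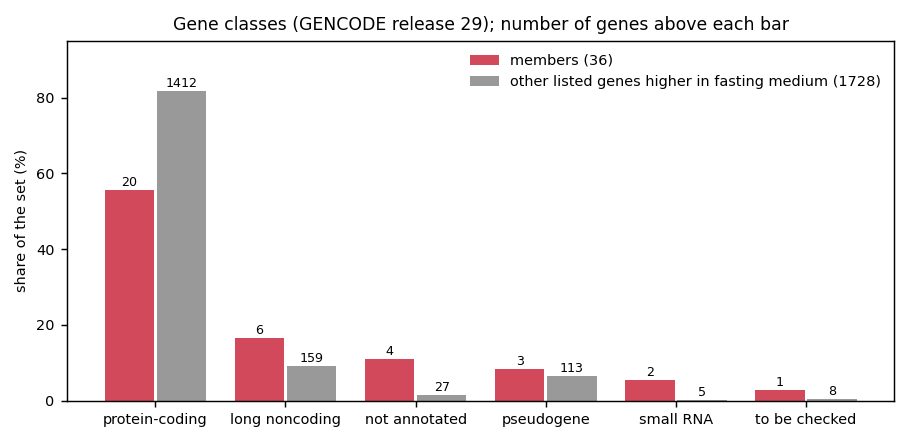
Share of each gene class (percent) among the 36 genes (left bars) and the 1728 other listed genes higher in fasting medium (right bars), with the number of genes above each bar. Protein-coding genes are 55.6% of the 36 and 81.7% of the others.

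CASP4LP, a pseudogene in the cluster of inflammatory caspases, had the highest mean normalized count of these 16, with 5, 13 and 7 reads in fasting replicates 1, 2 and 3 (9.86 ± 3.63 normalized counts) and 0 in each control library. AC089983.1, antisense to the thioredoxin reductase gene TXNRD1, had 8, 6 and 6 reads (8.23 ± 1.94 normalized counts) and 0 in each control library. NDUFB2-AS1 had 6, 3 and 10 reads (8.17 ± 5.33 normalized counts), with its libraries 4.38 times apart, and 0 in each control library. MIR31, the gene of an miRNA studied in colorectal cancer, had 6, 4 and 5 reads (6.23 ± 1.81 normalized counts) and 0 in each control library. These reads come from its primary transcript or locus and do not measure the mature miRNA printed above, and MIR31HG, which overlaps it on the same strand, is not listed. SNORD3B-1, one of several near-identical copies of the U3 small nucleolar RNA of ribosome assembly, had 1, 4 and 5 reads and 0 in each control library, and how reads were shared among the copies is not known. The processed pseudogenes BMPR1AP1 (8, 5 and 3 reads) and RPL7P18 (3, 5 and 2 reads) resemble their parent genes and are uncertain for the same reason, with 0 reads in each control library. RPL7P18 also overlaps MCTP1 on the same strand, and MCTP1 averaged 1707 ± 132 normalized counts in fasting medium and 783 ± 29.5 in control medium. BMPR1AP1 overlaps LAMA2 on the opposite strand, and LAMA2 is not listed. The unannotated loci Novel00247, Novel00639, Novel00176 and ENSG00000287853 had 19, 19, 10 and 12 reads in fasting medium in sum and 0 in the controls. Novel00247 had 5, 9 and 5 reads and Novel00639 had 3, 11 and 5 reads in fasting replicates 1, 2 and 3. FOSL2-AS1, KLHL30-AS1, AC007448.4, HIVEP2-DT and AC091173.1 completed the set with 12, 12, 11, 10 and 10 reads in fasting medium and 0 in the controls.

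Position was not used by the selection. In GENCODE release 29 (GRCh38), 23 of the 32 annotated genes overlap another gene, 17 of them one on the opposite strand and 9 one on the same strand. The library kit keeps strand, but no source used here states whether the counting did, so reads of such a gene and its partner cannot be told apart. A listed gene overlapped 7 of the 32, and in 6 of these (18.8%) it was a gene that rose, against 8.76% of the 1701 other annotated genes higher in fasting medium. Within 50000 bases or overlapping, 15 of 32 (46.9%) had a listed gene that rose, against 29.2% of the others, and 5 of 32 (15.6%) had one that fell, against 16.8%. These shares are descriptions and were not tested.

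Several of these neighbours are stress genes. TXNRD1, the partner of AC089983.1 and a target of the antioxidant factor NRF2, averaged 25688 ± 2547 normalized counts in fasting medium and 5756 ± 52.7 in control medium (SD, n = 3 each), a log2 difference of 2.15 (limma adjusted p = 2.08e-05). EID3, within the window of the same antisense RNA, averaged 184 ± 30.3 against 9.38 ± 2.59 (log2 difference 4.17, limma adjusted p = 4.88e-05). FOSL2, an AP-1 gene that FOSL2-AS1 overlaps and PLB1 neighbours, averaged 470 ± 45.3 in fasting medium against 168 ± 15.5 in control medium (log2 difference 1.48, limma adjusted p = 2.00e-04). PPP1R15A, the stress-induced phosphatase subunit that lets translation resume, neighbours TULP2 and averaged 19864 ± 2948 against 1776 ± 36.7 (log2 difference 3.47, limma adjusted p = 5.07e-06). CASP4, near CASP4LP, rose by 2.02 log2 units, and CSRNP1, an immediate early gene near XIRP1, by 2.54 (limma adjusted p = 2.28e-05 and 1.10e-05). TRIM16 and FBXW10B, which overlap AC005324.3 on its strand, rose by 1.76 and 2.27 log2 units (limma adjusted p = 5.21e-04 and 4.16e-03). Neighbours also fell, as ADCK2 did beside NDUFB2-AS1 (-0.56, limma adjusted p = 0.0204) and ACBD7 beside OLAH (-0.87, limma adjusted p = 3.86e-03).

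**Figure D3:**
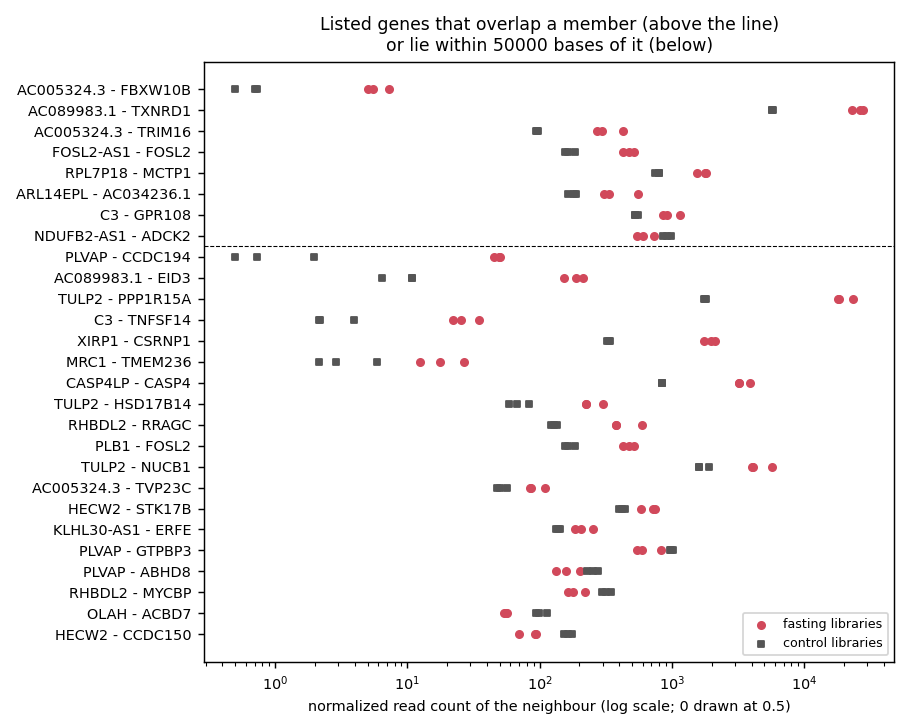
Normalized read count (log axis, 0 drawn at 0.5) in the 3 fasting libraries (circles) and the 3 control libraries (squares) of each listed gene that overlaps one of the 36 genes (above the dashed line) or lies within 50000 bases of one (below it). Labels give the gene of the 36 first and its neighbour second. Fasting values lie above control values for most pairs, for example TXNRD1 at 25688 against 5756 on average, and below them on average for ADCK2, GTPBP3, ABHD8, MYCBP, ACBD7 and CCDC150.

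Fasting replicate 3 stood apart from the other fasting libraries by transcript length. Across 2886 listed genes with at least 100 normalized counts in one medium, its ratio to the mean of replicates 1 and 2 had a Spearman correlation of -0.722 with the length of the longest transcript. The 32 annotated genes of the 36 had -0.402, a description over genes that share these 3 libraries and few reads. The 16 genes with transcripts of 71 to 2541 bases summed to 122, 98.3 and 146 normalized counts in fasting replicates 1, 2 and 3, so replicate 3 was 1.32 times the mean of the others. The 16 genes with transcripts of 2750 to 12180 bases summed to 114, 139 and 132, a ratio of 1.04. Gene by gene, the median ratio was 1.19 over the shorter 16 and 0.911 over the longer 16. The 2886 listed genes had medians of 1.31 up to the same length and 0.907 above it. Over all 36, the median ratio was 1.01, with replicate 3 the highest library in 12 genes and the lowest in 11.

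**Figure D4:**
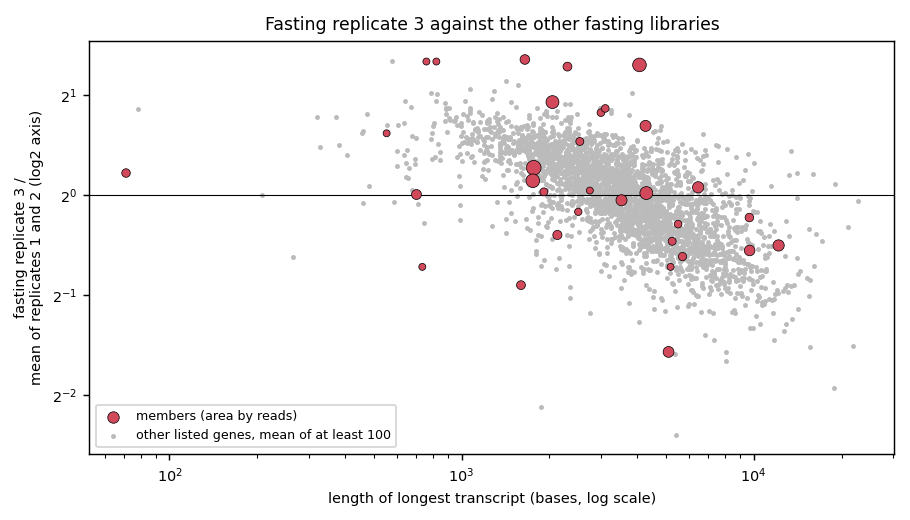
Ratio of fasting replicate 3 to the mean of fasting replicates 1 and 2 (log2 axis) against the length of the longest transcript (bases, log axis) for 32 annotated genes of the 36 (large points, area by reads) and other listed genes with a mean of at least 100 (small points). The small points slope downward (Spearman correlation -0.722 over 2886 genes), and the 32 genes scatter around them from PLB1 at 0.338 to NDUFB2-AS1 at 2.56.

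At the edge of the selection, 19 listed genes had exactly 1 read in the control libraries together. They held 12 to 80 reads in the fasting libraries, against 10 to 44 in the 36 genes with none. With the 5 genes set aside included, genes with none held 10 to 200. NUPR1, an ATF4-induced stress gene, had 16, 24 and 40 reads in fasting replicates 1, 2 and 3 and 0, 1 and 0 in control replicates 1, 2 and 3. IL16, a cytokine, had 13, 11 and 7 in fasting medium and 1, 0 and 0 in control medium. OPN1SW, the blue cone opsin, had 21, 24 and 3 in fasting medium and 1, 0 and 0 in control medium, with fasting replicate 3 the low one. The chi-square of the fasting libraries was 1.91 per degree of freedom over these 19 genes, against 0.936 over the 36. NUPR1 and OPN1SW gave 29.1 of the 72.6 units, and the other 17 genes had 1.28 per degree of freedom. With the 5 genes set aside put back it was 1.41 over 41 genes, with SLC7A11-AS1 at 28, 37 and 2 reads in fasting replicates 1, 2 and 3 and CRYAB as the main sources.

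Lists of pathway and tissue genes, 14 in all, put the 36 genes beside the wider response. Of the 36, 35 stood in none of them, and XIRP1 stood in the muscle and cytoskeleton list. The stress lists held none of the 36. No list held more than 19 of the 3511 listed genes, so few of any 36 listed genes would stand in one. Nothing about the 36 is read from these counts. Of all genes tested by the authors 11.8% are listed, and of listed genes limma called 49.7% higher. Here 19 of 28 heat shock and folding genes were listed and 19 rose (median log2 difference 2.29), as did 19 of 26 amino acid stress genes (2.94), 18 of 26 immediate early genes (2.15) and 8 of 20 NRF2 targets (2.83), beside a median of 0.53 over all listed genes. HSPA6, the stress-inducible chaperone, rose by 8.54 log2 units, DDIT3, the ATF4 partner also called CHOP, by 3.91, FOS by 4.67 and HMOX1, heme oxygenase-1, by 5.50 (limma adjusted p = 1.85e-06, 5.60e-05, 2.16e-06 and 3.53e-06 in that order), 4 genes named for their size after their values were seen. In the cytokine list 8 of 36 were listed and 8 rose (median 1.61), and of 22 matrix remodelling genes 8 rose and MMP14 fell (median 2.63). Tissue lists held few listed genes: 2 of 33 for muscle and cytoskeleton (XIRP1 and ANKRD1, both read in fasting medium alone), KRT15 of 38 keratinocyte genes, and none of 30 nervous system, 30 testis and cancer germline or 12 metallothionein genes. Of 26 colon epithelium markers KRT18 was listed, at 2460 ± 816 normalized counts in fasting medium and 723 ± 58.1 in control medium (limma adjusted p = 1.08e-03), and the other 25 have no value here, so the tissue of origin could be checked no further.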

How the data were processed

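RNA of RKO cells in fasting medium (3 libraries) and control medium (3 libraries) was sequenced from strand-specific libraries, per the labels' protocols. Tools listed in the submitters' processing notes are DESeq 1.10.1, HTSeq 0.6.1 and UMI-tools 1.0.0, without their roles. Aligner, genome build and annotation: not given in the sources used here. The deposited signal is, from its values, a normalized count, reads divided by a size factor. The authors' log2 change is deposited with it. So are the authors' p-value and its adjusted form. Of the values, 100% were whole multiples of 1 read within 0.01 read in each library. The 3511 listed genes held 4187326, 5071791 and 4389842 reads in fasting replicates 1 to 3 and 4017618, 5602177 and 5513396 in control replicates 1 to 3. They are 11.8% of the 29845 genes tested by the authors, a number worked out from the deposited p-values and their adjusted form.

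Genes were matched by Ensembl identifier to a table of gene names and to GENCODE release 29, and promoters and miRNAs to RefSeq by symbol. Log2 differences are fasting minus control from limma 3.58.1 on log2(normalized count + 1), with a mean-variance trend. Genes needed a mean of 1 in either group, and Benjamini-Hochberg adjustment ran over 29845 genes. The scale understates changes of low genes. Tests were two-sided. The 36 genes and all gene lists were chosen with earlier results of these data known. The naming rule gave values per library for the 20 highest genes, genes in a list and the 5 most variable with a mean of at least 10, and the rest by counts and range. The rest, and genes outside the 36, are also named, chosen after their values were seen. Alternatives used other pseudocounts, filters and scalings, edgeR 4.0.16 and DESeq2 1.42.0 on recovered reads, and left-out libraries. The fits were run on simulated data in which every changed gene had a higher mean than any of the 36. Changes at the low levels of the 36 were therefore not tested.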

Additional observations from a re-analysis of the deposited data

How the results depend on the processing

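Allowing up to 1 read in each control library gave 74 genes in place of 36, and putting the 5 genes back gave 41. Scaling to the total reads of listed genes gave a median level of 5.39 and a summed level of 232 normalized counts, and RLE scaling a median of 6.81, beside 6.36 and 274. Without each fasting library in turn the median lay between 6.11 and 6.58 and the sum between 263 and 283. With a minimum mean of 10 in one group 8 of the 36 could be fitted and 8 passed. AP-1 and antioxidant letters were in 0 promoters each within 150 bases of the start. Without 1 library 32 to 36 of the 36 genes passed and 2624 to 3509 of all listed genes. The calls lost were KLHL30-AS1, SNORD3B-1, FOLR3 and Novel00176 without fasting replicate 2 or any 1 control library, and Novel00176 alone without fasting replicate 1 (limma adjusted p = 0.0576 to 0.102). These 4 genes each have a library with 1 read. edgeR on recovered reads called 3359 of all listed genes and 36 of the 36. Scaled to total reads it called 2613, of which 33.6% were higher, against 52.2% for edgeR with the authors' factors, and the median log2 difference was 0.06 against 0.54; 28 of the 36 passed. Same-numbered libraries shared deviations with correlations of 0.03 to 0.08. Libraries of unlike number were not compared, so this cannot exclude that same-numbered libraries were paired. A replicate block gave 3293 calls and 36 of the 36. Chi-square per degree of freedom, an alternative added after seeing the data, was 0.850 to 1.05 without 1 fasting library. Depth limits every level here, since the highest gene rests on 44 reads.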
